A study of Rattus norvegicus with 24 samples.

Results

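The metallothionein genes Mt2A (ENSRNOG00000043098) and Mt1 (ENSRNOG00000038047) are 2 of the 23098 gene IDs counted in left ventricular tissue of spinal cord injured and sham operated rats. They were taken by ID. The deposited table gives IDs without names, so the names Mt2A and Mt1 came with the member list and were not checked against an annotation of the build used for counting. The pair was chosen by its measured CPM and its rise over sham 12 weeks after injury, and every comparison with the 12 week libraries is therefore a description without a test.

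Tissue came from the mid-ventricular free wall of male Wistar rats, and RNA was sequenced after removal of ribosomal RNA. Rats with spinal cord injury (SCI) had the cord cut through completely in the high thoracic region and were sampled 1 day, 3 days or 12 weeks later, or had a sham operation that opened the dura in that region and spared the cord, with sampling 7 days later. Each group held 6 libraries, and no label states that each came from a different rat, so p-values measure the spread between these libraries, part of which may be technical. Totals ran from 15002476 to 70340174 counts per library. By their labels, libraries 57 to 68 are those of 3 days and sham, and libraries 77 to 88 those of 1 day and 12 weeks. Only 3 days against sham and 12 weeks against 1 day thus each lie within 1 run of numbers. The other comparisons, among them 12 weeks and 1 day against sham, cross the runs. The labels do not say whether a run marks a batch. No group is matched to sham in the time since surgery. In bulk tissue, fewer cells of a type and less RNA per cell cannot be told apart.

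Metallothioneins are small, cysteine-rich proteins that bind zinc and copper, buffer the free metal in the cell and scavenge oxidants. Their genes are switched on when zinc activates the transcription factor MTF1, which binds short metal response elements near the start of the gene, and they also answer to glucocorticoids, oxidative stress and inflammatory cytokines. In mice, a raised level of metallothionein in heart muscle is known to limit oxidative injury. In RefSeq's gene table for the assembly GRCr8, Mt1, Mt2A, Mt3 and Mt4 stand next to one another on chromosome 19. Mt3 and Mt4, whose products are known mainly from brain and from stratified epithelium, are not analysed here.

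The bases before the start of each gene are shown because both genes were high in the same libraries and belong to 1 cluster. They are from RefSeq, matched by symbol, in build GRCr8, and hold the 250 bases before the start on the minus strand, at chr19:10838709-10838958 for Mt2A and chr19:10832976-10833225 for Mt1. The counts themselves were made with another build, mRatBN7.2. Capitals mark matches to the metal response element core, searched as TGCACNC or TGCGCNC on both strands.
Mt2A: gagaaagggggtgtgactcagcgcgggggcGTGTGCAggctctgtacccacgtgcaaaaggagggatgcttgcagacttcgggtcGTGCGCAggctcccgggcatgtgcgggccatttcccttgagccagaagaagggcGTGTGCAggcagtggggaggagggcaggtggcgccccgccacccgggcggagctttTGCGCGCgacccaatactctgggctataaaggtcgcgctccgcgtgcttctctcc
Mt1: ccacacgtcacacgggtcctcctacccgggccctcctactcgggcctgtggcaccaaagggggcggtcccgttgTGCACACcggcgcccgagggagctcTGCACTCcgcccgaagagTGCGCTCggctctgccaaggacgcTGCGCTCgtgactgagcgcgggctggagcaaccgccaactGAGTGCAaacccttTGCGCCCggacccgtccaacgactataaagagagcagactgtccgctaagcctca

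Mt2A held 4 matches to the core and Mt1 held 6, and in both genes 1 match lay at bases 55 to 49 before the start. At least 1 match was present in 20.6% of the 33469 rat windows of this length, at least 4 in 0.266% and at least 6 in 0.0269%. The element was searched because it is known from metallothionein genes. Matches here were therefore foreseeable, and the shares are background and no test. Each gene had 1 TATAAA, the TATA box letters, starting 31 bases before the start in Mt2A and 32 bases in Mt1, where 12.9% of windows held these letters. Each also had 1 match to the antioxidant response element TGACNNNGC, read as TGACTCAGC in Mt2A and TGACTGAGC in Mt1, and 10.1% of windows had a match. A form of the glucocorticoid response element, GNACA and TGTNC with 3 bases between them, was in neither window and in 0.373% of all windows. No motif search used a measured value, none of the matches overlapped a match to another motif, and a match describes letters only.

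Mt2A was highest at 12 weeks, and every 12 week library lay above every sham library. Levels are CPM, a gene's counts per 1000000 counts of its library, after scaling between libraries with TMM (trimmed mean of M-values) factors. At 1 day the lowest, median and highest libraries had 2.46, 11.8 and 20.4 CPM. At 3 days they had 2.91, 5.58 and 16.4 CPM. At 12 weeks they had 18.4, 45.2 and 216 CPM, and in sham 2.81, 4.53 and 7.14 CPM. The groups at 1 day and 3 days overlapped sham, although 5 of the 6 libraries at 1 day were above the highest sham library, against 1 of 6 at 3 days. The lowest Mt2A value of the 24 libraries was also at 1 day, in replicate 6.

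Mt1 was also highest at 12 weeks, at a much lower count. The lowest, median and highest values were 0.362, 0.529 and 0.81 CPM at 1 day, 0.349, 0.518 and 0.941 CPM at 3 days, 0.749, 1.62 and 6.81 CPM at 12 weeks, and 0.182, 0.328 and 0.652 CPM in sham. All 6 libraries at 12 weeks were above the highest sham library, as was 1 of 6 at 1 day and 1 of 6 at 3 days. The ranges at 1 day, 3 days and in sham overlapped widely. These CPM rest on few counts, 20 to 44 per library at 1 day, 9 to 29 at 3 days, 12 to 199 at 12 weeks and 8 to 24 in sham. In sham replicate 6, 8 counts gave 0.301 CPM with an exact 95% Poisson interval of 0.13 to 0.593 CPM, which covers counting error only. Such an interval may be too narrow here, since even numbers made up 58.1 to 61.1% of gene counts between 1 and 200 in each library. How reads that map to several genes were treated is not given in the sources used here, so reads shared between the metallothionein genes, or with a pseudogene such as Mt1m, may be split, counted more than once or dropped.

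**Figure D1:**
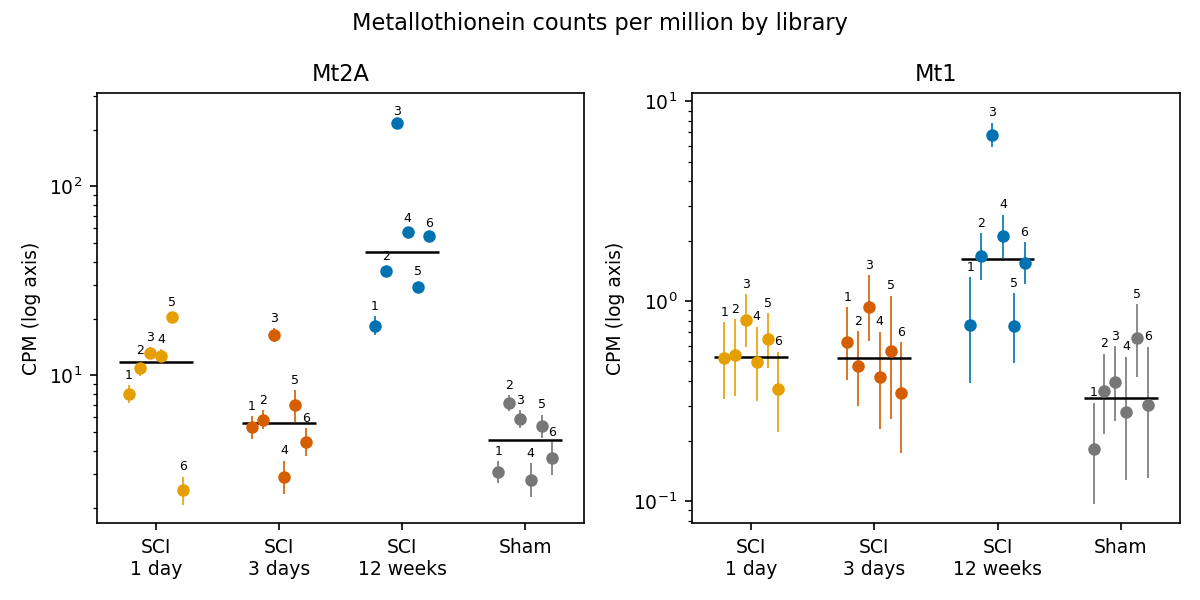
CPM of Mt2A (left) and Mt1 (right) on log axes, with 1 point per library labelled by its replicate number, bars for the exact 95% Poisson interval and a line at the group median, for 6 libraries each at 1 day, 3 days and 12 weeks after SCI and in sham. All 12 week libraries lie above all sham libraries for both genes, and 12 week replicate 3 is the highest point, at 216 CPM for Mt2A and 6.81 CPM for Mt1.

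At 1 day after transection neither metallothionein passed the test. Mt2A averaged 11.3 ± 5.96 CPM at 1 day and 4.67 ± 1.74 CPM in sham (SD, n = 6 each), a log2 fold change of 1.26 (SE 0.515, 95% interval 0.20 to 2.32) with an adjusted p of 0.0759 by edgeR's quasi-likelihood test with Benjamini-Hochberg adjustment. Mt1 averaged 0.562 ± 0.152 CPM at 1 day and 0.361 ± 0.16 CPM in sham, a log2 fold change of 0.66 (SE 0.446, interval -0.26 to 1.58, edgeR adjusted p = 0.3). By edgeR 0 of the 2 genes were called at an adjusted p under 0.05, where 24% of the 15065 genes tested were called in either direction. Mt2A alone had an unadjusted p under 0.05 (0.0218). DESeq2 and limma-voom each called 0 of the 2, where they called 4072 and 4152 genes in all. Both genes were on the higher side of the sham mean in most 1 day libraries, Mt2A in 5 of 6 and Mt1 in 6 of 6.

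The Mt2A value at 1 day lay close to the threshold and crossed it in 4 other fits, all with a rise. The alternatives were 6 fits with another method or setting and 24 with 1 library left out, and the rest did not cross it. The adjusted p by edgeR was 0.0165 with only the 2 groups in the fit, 0.0338 with the replicate number as a block, 0.0362 without 1 day replicate 6 and 0.0211 without 12 week replicate 3. The last of these leaves the fold change at 1.26 and changes the spread that all groups share in the fit. The block used the replicate number, which did not pair the samples. With 1 library left out the adjusted p by edgeR reached up to 0.186. By limma-voom the log2 fold change was 1.08 with an adjusted p of 0.207. The sham libraries also entered the comparison that chose the genes.

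At 3 days after transection the mean of Mt2A was closer to that of sham, and neither gene passed the test. Mt2A averaged 6.98 ± 4.81 CPM at 3 days and 4.67 ± 1.74 CPM in sham (SD, n = 6 each), with a log2 fold change of 0.56 (SE 0.529, interval -0.53 to 1.65, edgeR adjusted p = 0.514). Mt1 averaged 0.562 ± 0.211 CPM at 3 days and 0.361 ± 0.16 CPM in sham, with a log2 fold change of 0.65 (SE 0.463, interval -0.31 to 1.6, edgeR adjusted p = 0.367). By edgeR 0 of the 2 genes were called, where 17.5% of the genes tested were, and none had an unadjusted p under 0.05. Neither was called by DESeq2 or limma-voom, where these called 2993 and 2588 genes in all. Much of the Mt2A difference at 3 days came from replicate 3, at 16.4 CPM where the next highest library had 6.94 CPM. Without it the log2 fold change of Mt2A was 0.10. As in the comparison at 1 day, the sham libraries also entered the choice of the genes.

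The mean levels at 3 days and 1 day come from libraries outside the comparison that chose the genes, while the spread in the fit is shared by all 24 libraries. Mt2A averaged 6.98 ± 4.81 CPM at 3 days and 11.3 ± 5.96 CPM at 1 day (SD, n = 6 each), a log2 fold change of -0.70 (SE 0.512, interval -1.76 to 0.35, edgeR adjusted p = 0.521). With only these 2 groups in the fit the SE of Mt2A was 0.435 and its edgeR adjusted p 0.428, and without 12 week replicate 3 they were 0.398 and 0.344. For Mt1 the log2 fold change was -0.01 (SE 0.439, interval -0.92 to 0.90, edgeR adjusted p = 0.995). By edgeR 0 of the 2 genes were called, where 2.74% of the genes tested were, with none at an unadjusted p under 0.05. Neither was called by DESeq2 or limma-voom, where these called 811 and 539 genes in all. The intervals for both genes still admit differences of over 1.5-fold either way for Mt1 and over 3-fold lower for Mt2A, so equal levels at 1 and 3 days were not shown.

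At 12 weeks after transection both genes stood well above their level in each of the other groups. Mt2A averaged 68.7 ± 73.9 CPM at 12 weeks and 4.67 ± 1.74 CPM in sham (SD, n = 6 each), a fitted 14.6-fold difference (95% interval 6.67 to 31.9) that placed it 3rd of the 15065 genes by the size of the rise. Mt1 averaged 2.28 ± 2.28 CPM at 12 weeks and 0.361 ± 0.16 CPM in sham, a fitted 6.39-fold difference (interval 3.41 to 12.0) that placed it 26th. These are the values for which the genes were chosen, and they carry no test. Values picked for their size may be too high. The 95% intervals of the 12 week comparisons, here and against the acute groups, make no allowance for the choice. The SD at 12 weeks was about as large as the mean for both genes.

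Against the acute groups the difference was smaller but had the same direction. Compared with 1 day, in the same run of library numbers, the 12 week level was a fitted 6.08-fold higher for Mt2A (interval 2.93 to 12.6) and 4.05-fold higher for Mt1 (interval 2.24 to 7.34). Compared with 3 days it was 9.91-fold higher for Mt2A (interval 4.60 to 21.3) and 4.08-fold higher for Mt1 (interval 2.21 to 7.55). All 6 of the 12 week libraries exceeded every 3 day library for Mt2A and 5 of 6 exceeded every 1 day library, while for Mt1 4 of 6 exceeded every library of each acute group. The group order for Mt2A by mean CPM was 12 weeks, 1 day, 3 days and sham. For both Mt2A and Mt1, no 2 of the groups 1 day, 3 days and sham were told apart in the edgeR fit to all 24 libraries. The place of 12 weeks in the order was not tested.

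**Figure D2:**
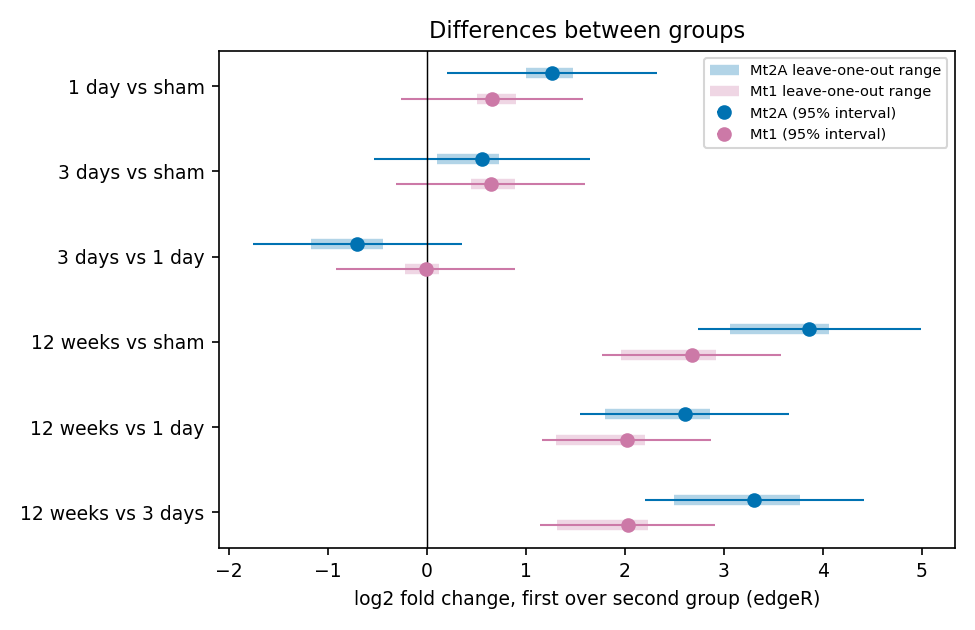
Log2 fold changes of Mt2A (blue) and Mt1 (pink) between groups, first over second, from 1 edgeR fit to 24 libraries. Points with thin bars are the estimate and its 95% interval, and thick pale bars span the values when each library was left out in turn. The intervals of the 12 week comparisons make no allowance for the choice of the genes on these values. Values of 12 weeks over the other groups lie between 2.02 and 3.87, and those among the other groups between -0.70 and 1.26.

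A single library carried much of the mean at 12 weeks without setting its direction. Replicate 3 had 216 CPM of Mt2A and 6.81 CPM of Mt1, where the other 5 libraries had 18.4 to 57.3 CPM and 0.749 to 2.13 CPM. Without it the 12 week mean was 39.1 ± 16.6 CPM for Mt2A and 1.38 ± 0.606 CPM for Mt1 (SD, n = 5). The log2 fold change over sham was then 3.06 for Mt2A, against 3.87 with all libraries, and 1.96 for Mt1, against 2.68. The values without it were 1.80 and 1.3 over 1 day, and 2.50 and 1.31 over 3 days, for Mt2A and Mt1 in that order. Replicate 3 had 33248851 counts, inside the range of its group, but the lowest mean correlation with the other libraries of its group (0.968 over all tested genes, where the 24 libraries had 0.968 to 0.989) and the lowest scaling factor (0.879). The part of these in its metallothionein level was not tested. Over the whole series the biological coefficient of variation was 0.579 for Mt2A and 0.481 for Mt1, at or above that of 98.4% and 96.4% of tested genes, against a common value of 0.169.

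Within groups the correlation of Mt2A with Mt1 was positive, and it did not pass the adjusted test in any group that was tested. Between log2 CPM of the 2 genes, Pearson's r was 0.798 at 1 day (exact permutation p = 0.0736, adjusted over the 4 groups 0.0981), 0.864 at 3 days (exact p = 0.0361, adjusted 0.0722) and 0.657 in sham (exact p = 0.157, adjusted 0.157), each over 6 libraries. Spearman's rho was 0.771 at 1 day (exact permutation p = 0.103), 0.771 at 3 days (exact p = 0.103) and 0.714 in sham (exact p = 0.136), each with an adjusted p of 0.136. At 12 weeks r was 0.962 and rho 0.886, given with no p, since the 12 week values chose both genes and replicate 3 raised both the rise that chose them and r. The 12 week p-value still entered the adjustment over the 4 groups, where a small p can lower the adjusted p of other groups. The adjusted values at 1 day and 3 days are therefore not free of the values that chose the genes. The sham libraries also entered the choice, so the p-values in sham are not free of it either.

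The correlations within groups rested on few libraries. Without the 2 libraries farthest from the median of Mt1, r over the remaining 4 was 0.779 at 1 day, 0.679 at 3 days, 0.919 at 12 weeks and 0.888 in sham. With each library left out in turn, r at 1 day lay between 0.457 without replicate 6 (adjusted exact p = 0.425) and 0.953 without replicate 3 (adjusted exact p = 0.0481). The adjustment again counted the 12 week p-value, so no call is drawn from the 0.0481. At 3 days r lay between 0.563 without replicate 3 and 0.917, in sham between 0.531 without replicate 1 and 0.797, and at 12 weeks between 0.857 without replicate 3 and 0.98. The 2 genes share each library's scaling factor, and no r over all groups was tested because the 12 week libraries stand apart.

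**Figure D3:**
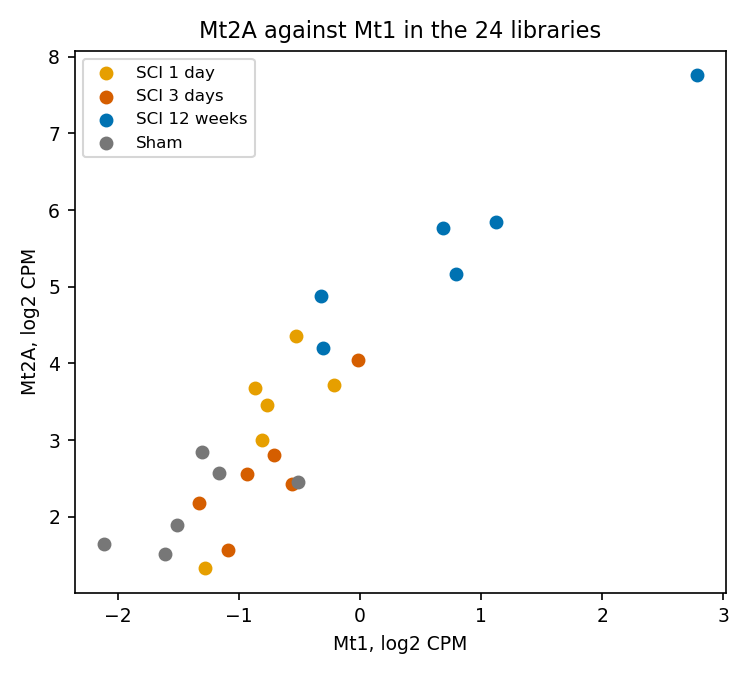
Log2 CPM of Mt2A against that of Mt1, 1 point per library, coloured by group (1 day, 3 days and 12 weeks after SCI, and sham). Within groups r lay between 0.657 and 0.962, and the 12 week libraries take the upper right.

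Mt2A differed from sham by a larger factor than Mt1 at 12 weeks, as the ratio of their counts within each library shows. This log2 ratio, computed with 0.5 added to each count and not corrected for gene length, averaged 4.84 ± 0.339 at 12 weeks and 3.67 ± 0.483 in sham (SD, n = 6 each). The lowest 12 week library (4.40) was above the highest sham library (4.30) and the highest 3 day library (4.10), while 1 day libraries reached 4.97. The difference of 1.17 from sham rests on the chosen comparison and has no test. In summed counts Mt2A had 30.4 counts for each Mt1 count at 12 weeks and 13.9 in sham.

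Among the other groups the ratio did not pass the test. It averaged 4.10 ± 0.775 at 1 day, 3.45 ± 0.475 at 3 days and 3.67 ± 0.483 in sham. The difference was 0.43 between 1 day and sham (exact permutation p = 0.275, adjusted over 3 comparisons 0.412), -0.22 between 3 days and sham (exact p = 0.437, adjusted 0.437) and -0.65 between 3 days and 1 day (exact p = 0.113, adjusted 0.338), two-sided over all arrangements of the libraries. The last was -0.92 without 1 day replicate 6, with an adjusted exact p of 0.026. It was the only value under 0.05 among 12 fits with 1 library left out and 2 other settings, so no call is drawn from it. Replicate 6 at 1 day had the lowest ratio of the 24 libraries, at 2.74, beside the lowest Mt2A level. At Mt1 counts as low as 8 the ratio carries much counting error. In the comparisons with sham, the sham libraries also entered the choice of the genes.

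**Figure D4:**
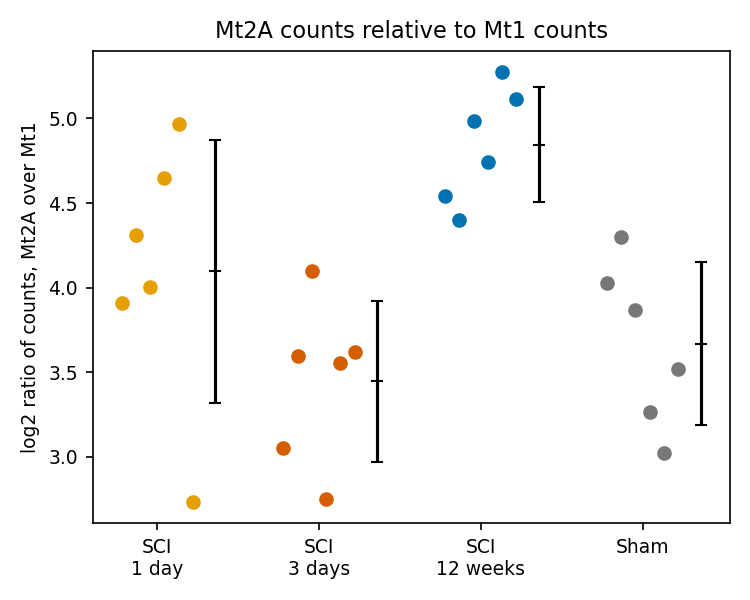
Log2 ratio of Mt2A counts to Mt1 counts in each library, with the mean and SD of each group beside its points, for 1 day, 3 days and 12 weeks after SCI and sham (6 libraries each). The 12 week libraries lie between 4.40 and 5.27 and all sham libraries between 3.03 and 4.30.

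The likeness of the pair over libraries was set beside that of all genes tested. Both genes were chosen for their rise at 12 weeks, which by itself gives them a high r of levels, so the ranks on levels describe that choice in part. By Pearson's r of log2 CPM over the 24 libraries, given as a measure of likeness with no test, Mt1 ranked 4th of the 15064 other genes for likeness to Mt2A (r = 0.925), and Mt2A ranked 1st for likeness to Mt1. With each group's own mean taken out, so that only the spread within groups counts, Mt1 ranked 11th for Mt2A (r = 0.824) and Mt2A ranked 7th for Mt1. These ranks are not free of the choice either, since the 12 week libraries enter them. The SD of log2 CPM at 12 weeks was 1.22 for Mt2A and 1.14 for Mt1, the largest of any group for each gene. Without 12 week replicate 3 the ranks on levels were 5th and 1st (r = 0.89), and those within groups were 17th and 7th (r = 0.729).

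The IDs most like the mean of the pair over the 24 libraries were ENSRNOG00000025764 (r = 0.951) and ENSRNOG00000019742 (r = 0.939). On levels without 12 week replicate 3 they ranked 2nd (r = 0.920) and 3rd (r = 0.902), behind another ID (r = 0.923). The files do not pair these IDs with gene names. ENSRNOG00000025764 averaged 17.3 ± 6.30 CPM at 1 day, 12.2 ± 6.58 CPM at 3 days, 48.3 ± 48.5 CPM at 12 weeks and 6.83 ± 1.5 CPM in sham (SD, n = 6 each). Its r was also the highest of all genes within groups (0.929), and there it stayed 1st without 12 week replicate 3 (0.879). ENSRNOG00000019742 was far less variable, with 254 ± 38.8 CPM at 1 day, 218 ± 27.1 CPM at 3 days, 381 ± 158 CPM at 12 weeks and 212 ± 17.1 CPM in sham. It ranked 3rd within groups (0.887), and its log2 fold change over sham was 0.26 at 1 day, 0.03 at 3 days and 0.84 at 12 weeks, where Mt2A had 1.26, 0.56 and 3.87.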

How the data were processed

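The deposited table holds raw counts per gene ID for 24 libraries. FastQC 0.12.1, STAR 2.7.11a and featureCounts 2.0.6 with build mRatBN7.2 are named in the submitters' processing notes. For the strand setting, multi-mapped reads and the annotation release, no source used here gives the choice. The table has 26166 lines for 23098 IDs. Repeated lines of an ID are identical, and each ID was used once. The tests used edgeR 4.0.16 in R 4.3.3 (filterByExpr, TMM, 1 term per group, quasi-likelihood F test, two-sided), over 15065 genes and with 20 residual degrees of freedom. Benjamini-Hochberg adjustment ran over all of these genes, with a threshold of 0.05. SEs were derived from the fold change and F. Log2 CPM used a prior count of 2. Alternatives were DESeq2 1.42.0, limma-voom 3.58.1, other size factors, no filter, other sample sets and a replicate block. The fit was tested on simulated counts. No pair of replicates agreed within sampling noise.

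The members, gene lists, tests and alternatives were chosen with earlier results of these data known. The name table (GRCr8) gave none of its 47357 genes an Ensembl ID, so planned lists of metal, glucocorticoid, oxidative stress and acute phase genes and the tissue markers were not analysed here. Named are the 2 members and, for want of symbols, the 2 IDs most like them.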

Additional observations from a re-analysis of the deposited data

Results flagged for a closer look

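In 3 of the 8 sets of 6 values, 1 library stood far from the others in CPM. Its gap to its neighbour was large for the range of its group, by the limit of Dixon's test at the 95% level. Chance passes this limit in about 1 of 20 sets only where values follow a normal distribution, which was not checked for CPM. The limit was applied to CPM and not to log2 CPM, where the flags may not hold. They are therefore descriptions and no test. For Mt2A at 12 weeks this was replicate 3, at 216 CPM, with a gap of 0.804 of the range. Mt1 in the same library had 6.81 CPM and a gap of 0.773. Both 12 week flags thus rest on the same library and on the values that chose the genes. For Mt2A at 3 days it was replicate 3, at 16.4 CPM, with a gap of 0.701. Both replicates carry the number 3, but the labels do not say that a number marks a shared animal, batch or day.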

How the results depend on the processing

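All 180 alternative values of the 12 week comparisons for both genes were positive, with log2 fold changes of 1.3 to 4.06. The genes were chosen for this rise and the fits share most of their libraries. The common sign is therefore no independent support, and the range only describes how far the size moved. Of 6 other methods or settings for Mt2A at 1 day over sham, the call was gained only with a replicate block (1.24) and with only the 2 groups compared (1.27). Leaving out each of the 24 libraries in turn gave 1.00 to 1.47, with the call gained only without 1 day replicate 6 and without 12 week replicate 3. Mt1 at 3 days over 1 day had no stable sign, with -0.22 to 0.12 when 1 library was left out. The cause of these changes was not tested. The correlation left out in turn was 0.857 to 0.98 at 12 weeks and 0.457 to 0.953 at 1 day, and the log2 ratio of 3 days minus 1 day was -0.92 to -0.48. The number of genes called between 3 days and 1 day was 413, and 811 with DESeq2, 259 with only the 2 groups compared and 170 to 653 when 1 library was left out. The replicate number did not pair the samples. Deviations of same-numbered libraries correlated at -0.178 to 0.151 over the 6 comparisons, and at most 2 of 6 libraries correlated best with their own number. With the block, no call of a member changed other than that of Mt2A at 1 day. Mt1 rests on 8 to 44 counts per library outside 12 weeks, which limits what could be seen of it in the acute groups.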
